A study of Homo sapiens with 4 samples.

Results

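The genes of fatty acid, lipid droplet and cholesterol metabolism were examined in T47D cells, an established human breast cancer cell line that carries the progesterone receptor (PR). They are 48 gene symbols out of 23287 in the deposited RNA-seq data. The 48 are textbook enzymes and regulators of these pathways, taken by symbol with no threshold on a measured value. They fall into 6 branches, with 12 genes of fatty acid synthesis, 7 of fatty acid activation, 9 of lipid storage, 11 of cholesterol synthesis, 5 of the SREBP system, and 4 of fatty acid oxidation and the PPAR receptors.

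T47D cells were grown in RPMI with serum and moved to medium with charcoal-stripped serum. The study kept them in it longer for the PR binding than for the RNA. They were given R5020, a synthetic progestin that binds PR, or the vehicle ethanol (EtOH). RNA was sequenced from 1 library treated with 10 nM R5020 for 3 h and from 1 library treated with EtOH for 3 h. PR was immunoprecipitated in 1 library treated with 10 nM R5020 for 1 h, and its binding sites were called by the authors against an input DNA library that was not analysed here. With 1 library per condition no difference has a replicate check, no test could be made, and a gene was called higher or lower when log2((FPKM in R5020 + 1) / (FPKM in EtOH + 1)), named the log2 fold change below, passed 1.5-fold.

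Cells make long-chain fatty acids from cytosolic acetyl-CoA, extend and desaturate them, and must join each fatty acid to coenzyme A before it can be used in membranes, stored as triglyceride in lipid droplets or burnt in mitochondria. Cholesterol is made from the same acetyl-CoA through mevalonate and squalene. The SREBP transcription factors drive the genes of both routes. They are held in the endoplasmic reticulum by INSIG proteins and carried to the Golgi by SCAP when sterols are low. In breast cancer cells progestins are known as inducers of lipogenic enzymes and of lipid droplets.

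The deposited FPKM values (read pairs scaled by transcript length and by library total) were summed over the transcripts of each gene. The coverage corresponded to 36203604 reads of 50 nt in R5020 and 35151493 reads in EtOH, and to between 310.9 and 189829 reads for each retained member. These totals are not the sequencing depth. The study reported more unique paired-end reads for EtOH than for R5020, the opposite order. A failed status was given to 13 transcripts in R5020 and 9 in EtOH. Those listed at 0, such as the transcripts of *KRT8* and *KRT18* in EtOH, add nothing to the totals. The cause of the opposite order was not tested. Markers of fat cells were at or near 0, since the FPKM was 0.185 in EtOH and 0.195 in R5020 for *ADIPOQ*, 0.047 and 0.068 for *PLIN1*, 0 and 0.0057 for *LEP* and 0.019 and 0 for *CIDEC*, and *FABP4* was listed at 0 in both libraries. Of the stromal, immune and endothelial markers, *COL1A1* was at 5.12 and 3.31 FPKM and *CD74* at 2.10 and 2.13, while *COL1A2*, *COL3A1* and *CDH5* were listed at 0 and *PTPRC*, *PECAM1*, *DCN* and *LYZ* were below 1 FPKM. The luminal keratin *KRT19* was at 608 FPKM in EtOH and 477 in R5020, while the luminal factors *GATA3* and *FOXA1* went from 253 to 126 and from 64.3 to 14.7. The receptor genes *ESR1* and *PGR*, the latter encoding PR itself, went from 17.2 to 10.9 and from 23.7 to 15.3 FPKM, and *MUC1* was at 551 and 520 and *PRLR* at 152 and 162. *KRT8* and *KRT18* were listed at 0 in EtOH, where their transcripts had a failed status. The part of these shifts in the values of the members was not tested. No transcript of a member had a failed status. In bulk RNA, fewer cells with a transcript cannot be told apart from less of it in each cell.

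Of the 48 members, 41 reached 1 FPKM in either library and were retained. In R5020, 8 of the 41 retained members were higher and 1 was lower, while over all 11018 retained genes 7.67% were higher and 4.14% were lower. The genes that rose were *ACSL1*, *ACSS1*, *PLIN2*, *ACSF2*, *ELOVL7*, *ELOVL5*, *ELOVL1* and *ACSL3*, and the gene that fell was *INSIG2*. The other 32 retained members stayed within 1.5-fold. Signs were evenly split, with 20 retained members above 0 and 21 below 0, and the median log2 fold change was −0.06 against 0.01 over all retained genes. The members nearest the threshold were *ACSL3* with 0.63 and *SCD* with 0.43 on the rising side, and *INSIG2* with −0.81 and *MVD* with −0.41 on the falling side. The summed FPKM of all 48 members was 1158.75 in EtOH and 1305.15 in R5020, which is 12.6% more. The retained members were a highly expressed group, with a median of 10.01 FPKM in EtOH against 5.09 over all retained genes.

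**Figure D1:**
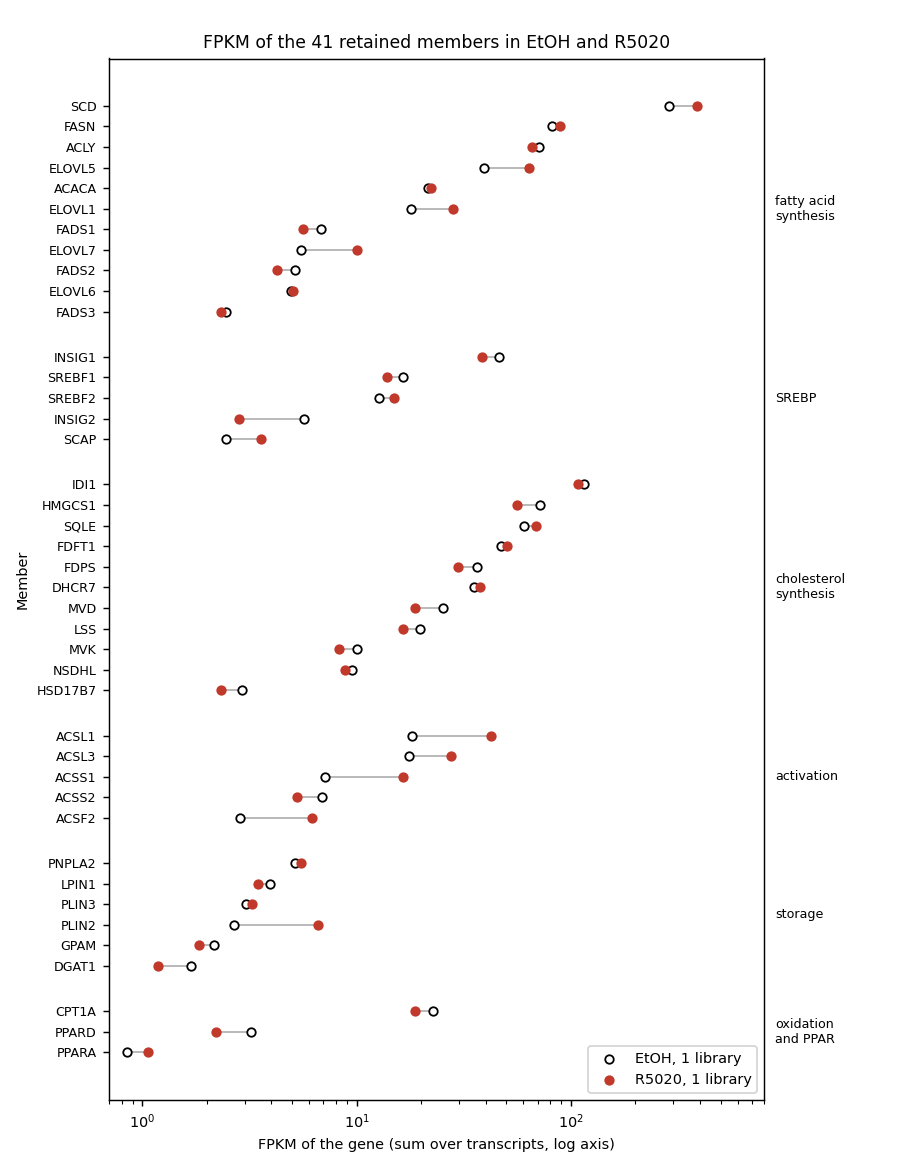
FPKM of the 41 retained members on a log axis, grouped by branch and ordered by level, with open circles for the EtOH library and filled circles for the R5020 library (1 library each). *SCD* stood highest in both libraries, at 286 and 386 FPKM, and the widest gaps between the circles belonged to *ACSL1*, *ACSS1*, *ACSF2*, *PLIN2* and *INSIG2*.

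The branches moved apart when their FPKM values were summed. The activation branch went from 53.4 FPKM in EtOH to 98.5 in R5020, a log2 ratio of 0.87 and 84.4% more. Fatty acid synthesis went from 542.7 to 683.2 FPKM with a log2 ratio of 0.33, and storage from 18.9 to 22.3 with a log2 ratio of 0.22. Sums were lower in R5020 for cholesterol synthesis, 433.6 against 405.6 FPKM and a log2 ratio of −0.10, for the SREBP system, 83.4 against 73.6 and −0.18, and for oxidation and the PPAR receptors, 26.7 against 22.01 and −0.27. Only the activation sum passed 1.5-fold. In several branches a single gene made up much of the sum. *SCD* alone made up 52.7% of the fatty acid synthesis sum in EtOH, *INSIG1* 55.4% of the SREBP sum and *CPT1A* 84.7% of the oxidation sum. With the most abundant gene left out, the log2 ratio was 0.66 for activation (without *ACSL1*), 0.21 for fatty acid synthesis (without *SCD*) and −0.08 for the SREBP system (without *INSIG1*). The storage sum turned on *PLIN2*, and without it was 16.2 FPKM in EtOH and 15.6 in R5020, a log2 ratio of −0.052.

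**Figure D2:**
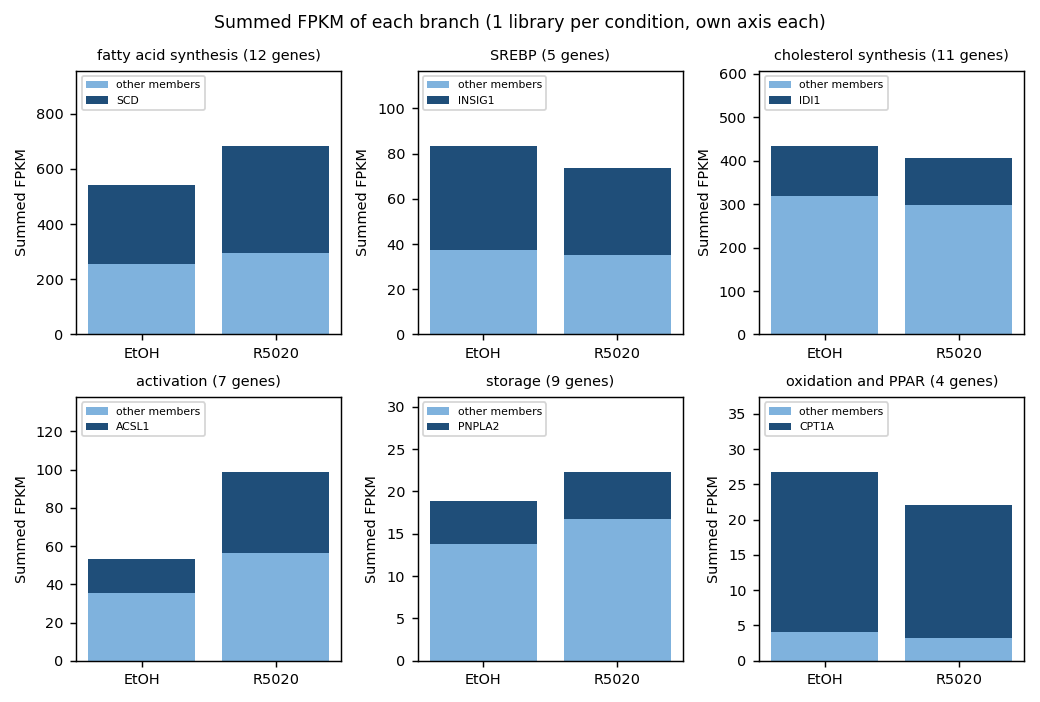
Summed FPKM of each branch in the EtOH and R5020 libraries (1 library each), with the most abundant member of the branch in EtOH in the dark segment and all other members in the light segment. Each panel has its own axis starting at 0. The activation bar rose from 53.4 to 98.5 FPKM, in both its *ACSL1* segment and the remainder.

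The members also differed in the PR binding that had been measured 1 h after R5020. A PR binding site lay inside the locus or within 50 kb of it for 29 of 48 members, or 60.4%, against 45.7% of all gene symbols, and inside the locus for 16. Among the 41 retained members this held for 26, or 63.4%, against 52.7% of all retained genes, and a site inside the locus was found for 15, or 36.6%, against 22.5%. Longer genes have more room for a site, and the median locus was 33.9 kb for retained members and 26.8 kb for all retained genes. Of the 8 members that rose, 6 had a site within 50 kb and 5 had one inside the locus, against 61.4% with a site within 50 kb among all genes that rose. *INSIG2*, the member that fell, had no site within 50 kb, against 61% with one among all genes that fell. Of the 32 members within 1.5-fold, 20 had a site, or 62.5%, against 52.7% of all retained genes. The share over all genes within 1.5-fold was not computed, so this count only describes the members. Site scores below are those of the peak caller, −10 times the log10 of its p-value, with a median of 74.5 and a range from 50 to 1965.17 over 11181 sites. All site positions are in hg19.

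**Figure D3:**
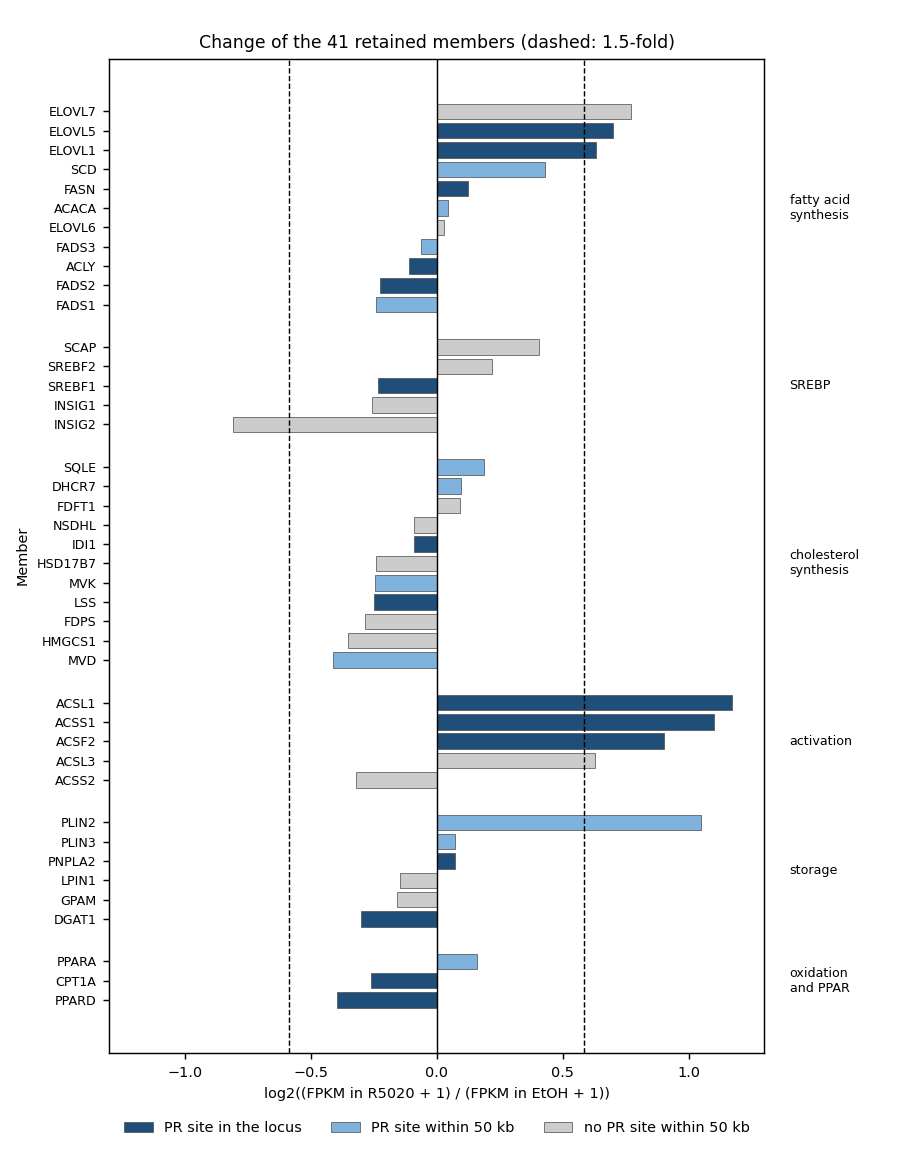
Log2 fold change of each of the 41 retained members in R5020 over EtOH (pseudocount of 1, 1 library each), grouped by branch, with dashed lines at 1.5-fold and colour for the nearest PR binding site (in the locus, within 50 kb, or none within 50 kb). The bars of *ACSL1*, *ACSS1*, *ACSF2*, *ELOVL5* and *ELOVL1* passed the upper line and had a site in the locus, while *ELOVL7* and *ACSL3* passed it with none within 50 kb.

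Activation was the branch with the highest share of members that rose. Of its 7 genes 5 were retained, and 4 of the 5 were higher in R5020. *ACSL1*, which encodes a long-chain acyl-CoA synthetase, went from 18.2 FPKM in EtOH to 42.3 in R5020, 2.32 times as much, with a log2 fold change of 1.17. *ACSL1* was the member with the highest log2 fold change and the 280th of all 11018 retained genes. That first place depended on the pseudocount, since with 0.1 in place of 1 *PLIN2* was at 1.27 and *ACSL1* at 1.21. *ACSL3*, a long-chain acyl-CoA synthetase found on the endoplasmic reticulum and on nascent lipid droplets, went from 17.6 to 27.7 FPKM (log2 fold change 0.63). Its transcripts NM_004457 and NM_203372 were both higher in R5020, at 10.7 and 15.9 FPKM for the former and 6.91 and 11.8 for the latter. When the highest transcript was used instead of the sum, its log2 fold change was 0.53, under 1.5-fold. *ACSS1*, the mitochondrial enzyme that turns acetate into acetyl-CoA, went from 7.10 to 16.4 FPKM with a log2 fold change of 1.10. *ACSF2*, an acyl-CoA synthetase of the mitochondrion, went from 2.86 to 6.21 FPKM with a log2 fold change of 0.90. *ACSS2*, the cytosolic and nuclear counterpart of *ACSS1* and a gene known as an SREBP target, was at 6.86 FPKM in EtOH and 5.29 in R5020 (log2 fold change −0.32). The acetate enzymes of mitochondrion and cytosol thus had opposite signs. The remaining synthetases were low, *ACSL4* at 0.794 and 0.653 FPKM and *ACSL5* at 0.020 and 0.010, and neither was retained.

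The isoforms of *ACSS1* were listed very differently in the libraries. In EtOH, NM_001252675 had 4.99 FPKM and NM_032501 had 2.11. In R5020, NM_001252675 was listed at 0 and NM_032501 had 16.4. The lengths of these transcripts are 3676 and 3682 nt and they share both ends of the locus, and the cause of the exchange was not tested.

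PR binding inside these loci is shown by sequence for the sites that lay in introns of *ACSS1* and *ACSL1*. *ACSS1* (chr20:24986866-25038818) held 3 sites. The site at chr20:24997919-24998586 had a score of 332.8, the 106th highest of all sites and the highest near any member, and the site at chr20:25020419-25020988 had a score of 250.67, the 164th highest. The third, at chr20:25027838-25028274, scored 83.42. *ACSL1* (chr4:185676749-185747215) held 1 site, at chr4:185734566-185734812 with a score of 124.19, whose midpoint lay 12.5 kb downstream of the nearest start. For the 2 highest-scoring sites of *ACSS1* and the site of *ACSL1*, 150 bases of the hg19 plus strand are given. Capitals mark a match to ACANNNTGT, the core of the inverted repeat that PR and the glucocorticoid and androgen receptors bind, where N is any base, searched on both strands.
ACSS1 intron, chr20:24998178-24998327: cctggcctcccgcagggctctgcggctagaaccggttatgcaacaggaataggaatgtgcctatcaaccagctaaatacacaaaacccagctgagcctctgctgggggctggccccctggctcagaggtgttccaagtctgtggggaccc
ACSS1 intron, chr20:25020684-25020833: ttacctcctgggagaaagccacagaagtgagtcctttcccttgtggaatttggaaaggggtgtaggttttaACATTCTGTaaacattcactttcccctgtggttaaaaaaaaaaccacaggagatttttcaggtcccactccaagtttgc
ACSL1 intron, chr4:185734663-185734812: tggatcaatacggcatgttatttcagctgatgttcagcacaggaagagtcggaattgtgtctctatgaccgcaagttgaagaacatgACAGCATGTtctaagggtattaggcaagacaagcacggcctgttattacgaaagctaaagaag
The *ACSS1* site with a score of 332.8 held no match, and the *ACSS1* site with a score of 250.67 and the *ACSL1* site held 1 each. The site of *ACSF2* at chr17:48503519-48503798 scored 90.51 and lay over the start of the gene, with its midpoint 139 bases downstream of the start in a coding exon. *ACSF2* had 4 further sites within 50 kb, the highest at chr17:48585595-48586260 with a score of 108.19. *ACSL3* had its nearest site 63.9 kb away, *ACSS2* 76.6 kb away, *ACSL5* 486.3 kb away and *ACSL4* 5194 kb away.

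In fatty acid synthesis 3 of 4 chain-extending enzymes rose and the enzymes that build the chain did not pass 1.5-fold. The elongases add carbons to existing fatty acids in the endoplasmic reticulum. *ELOVL7* went from 5.49 FPKM in EtOH to 10.07 in R5020 with a log2 fold change of 0.77. *ELOVL5*, which extends polyunsaturated fatty acids, went from 39.1 to 64.1 FPKM with a log2 fold change of 0.70. *ELOVL1*, which extends saturated very long chains, went from 17.9 to 28.2 FPKM with a log2 fold change of 0.63. The fourth elongase, *ELOVL6*, which acts on palmitate and is known as an SREBP1 target, was at 4.94 and 5.06 FPKM. Together the 4 elongases went from 67.4 to 107.4 summed FPKM. At the transcript level NM_024930 of *ELOVL7* went from 3.08 to 7.29 FPKM while NM_001104558 was at 2.42 and 2.78. *ELOVL5* gained 7.54 FPKM of NM_001242830, listed at 0 in EtOH, beside its main transcript NM_021814 at 39.1 and 56.5 FPKM, and with that highest transcript alone its log2 fold change was 0.52, under 1.5-fold.

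*FASN*, *ACACA* and *ACLY* make up the core of the route, in which ATP-citrate lyase supplies acetyl-CoA, acetyl-CoA carboxylase makes malonyl-CoA and fatty acid synthase builds palmitate. *FASN* was at 81.9 FPKM in EtOH and 89.4 in R5020 (log2 fold change 0.12). *ACACA* was at 21.6 and 22.3 FPKM and *ACLY* at 70.8 and 65.5, log2 fold changes of 0.05 and −0.11. Their levels were high and nearly equal in the libraries 3 h after R5020. *ACACB*, the carboxylase of the mitochondrial surface, was at 0.457 and 0.299 FPKM and was not retained.

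*SCD*, the desaturase that turns stearate and palmitate into oleate and palmitoleate, was the most abundant member, the 50th of all genes by FPKM in EtOH and the 37th in R5020. It had 286 FPKM in EtOH and 386 in R5020, 1.35 times as much, with a log2 fold change of 0.43 that stayed under 1.5-fold. In absolute terms this was the widest difference of any member. The desaturases of polyunsaturated fatty acids lie side by side on chromosome 11 and had the other sign. *FADS1* was at 6.80 and 5.59 FPKM, *FADS2* at 5.15 and 4.26, and *FADS3* at 2.47 and 2.32, with log2 fold changes of −0.24, −0.23 and −0.06. None of the 3 passed 1.5-fold.

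A site lay within 50 kb of 10 of the 12 genes of fatty acid synthesis. *FASN* (chr17:80036214-80056106) had 14 sites within 50 kb, 2 of them in its introns, in a gene-dense stretch shared with *CCDC57*, *DUS1L* and others. The highest of the 14, at chr17:80071785-80072481 with a score of 147.15, lay in an intron of *CCDC57*, at −16.0 kb from the *FASN* start (minus for upstream). It held a match to the whole inverted repeat, GNACA and TGTNC with 3 bases between them, shown in capitals. The *SCD* site at chr10:102105326-102105995 scored 86.78 and lay between protein-coding genes, its midpoint at −1.11 kb from the start. The *ELOVL5* site at chr6:53158309-53158794 scored 95.37 and lay in an intron 55.4 kb downstream of the start. The windows of 150 bases on the hg19 plus strand show the site that carried the repeat and the sites nearest to the most abundant member and to the most abundant elongase.
FASN upstream, chr17:80071964-80072113: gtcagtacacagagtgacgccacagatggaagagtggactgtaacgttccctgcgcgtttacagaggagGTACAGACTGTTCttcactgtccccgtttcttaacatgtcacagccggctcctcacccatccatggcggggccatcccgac
SCD upstream, chr10:102105586-102105735: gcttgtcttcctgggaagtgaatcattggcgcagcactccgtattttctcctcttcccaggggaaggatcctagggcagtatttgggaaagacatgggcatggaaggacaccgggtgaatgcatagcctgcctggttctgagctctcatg
ELOVL5 intron, chr6:53158477-53158626: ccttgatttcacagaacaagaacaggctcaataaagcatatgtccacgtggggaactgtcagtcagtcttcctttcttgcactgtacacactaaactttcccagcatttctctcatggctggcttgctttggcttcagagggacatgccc
*FASN* thus had the most sites of any member and the only match to the whole repeat among the 6 sites with the highest scores, with a log2 fold change of 0.12. The *ELOVL1* site at chr1:43832250-43832666 scored 65.18 and lay in an intron 0.951 kb downstream of the start. *ELOVL6* and *ELOVL7* had their nearest sites 335.2 and 141.3 kb away. *ACLY* had 1 site in a coding exon with a score of 65.51, and *ACACA* had 1 site with a score of 78.12, 31.8 kb from its locus. *ACACB*, which was not retained, had 4 sites, the nearest 17.7 kb away and the highest scoring 84.44. The 3 *FADS* genes shared sites. The site at chr11:61595443-61595886, with a score of 63.38, lay at the start of *FADS2* and 10.9 kb from *FADS1*, and the site at chr11:61659029-61659689, with a score of 62.97, lay at −0.353 kb from the *FADS3* start. The highest scores near *FADS1*, *FADS2* and *FADS3* were 80.28, 68.41 and 98.85.

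In the storage branch *PLIN2* was the only gene past 1.5-fold. *PLIN2* encodes perilipin 2, a protein coat of lipid droplets in cells other than adipocytes. It was at 2.69 FPKM in EtOH and 6.63 in R5020, 2.47 times as much, with a log2 fold change of 1.05, the 341st highest of the retained genes. *PLIN3*, a perilipin that moves to newly formed droplets from the cytosol, was at 3.05 and 3.26 FPKM with a log2 fold change of 0.07. The retained enzymes of triglyceride synthesis among the members, *GPAM*, *LPIN1* and *DGAT1*, had values below 0. *GPAM*, the mitochondrial acyltransferase of the opening step, was at 2.16 and 1.84 FPKM. *LPIN1*, a phosphatidate phosphatase, was at 3.96 and 3.48 FPKM. *DGAT1*, which adds the last acyl chain, was at 1.68 and 1.18 FPKM. Their log2 fold changes were −0.16, −0.15 and −0.30, none of them past 1.5-fold. *DGAT2*, the other enzyme of the last step, was at 0.222 and 0.386 FPKM and was not retained. *PNPLA2*, the adipose triglyceride lipase, was at 5.17 and 5.49 FPKM with a log2 fold change of 0.07. *LPIN2* and *LPL* were listed at 0 in both libraries, and whether these zeros are failed estimates could not be settled from the status given. Summed by role, the droplet coats went from 5.74 to 9.89 FPKM, and the triglyceride enzymes were at 8.03 and 6.88 FPKM.

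Of the 21 members with several transcripts above 0 FPKM, the highest transcript differed between the libraries for 8. They were *ACSS1*, *DGAT2*, *ELOVL6*, *FDPS*, *GPAM*, *MVK*, *PPARA* and *PPARD*. Every transcript of *DGAT2* and *PPARA* was below 1 FPKM. The share over all genes was not computed, so the count only describes the members. In *GPAM* the transcripts changed places. NM_020918 was at 1.88 FPKM in EtOH and 0.544 in R5020, and NM_001244949 at 0.281 and 1.29, while the lengths of these transcripts are 6383 and 6387 nt. *ELOVL6* had a smaller exchange of the same kind, with NM_001130721 at 2.48 and 2.05 FPKM and NM_024090 at 2.45 and 3.01.

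The single site near *PLIN2* (chr9:19115759-19127604) lay at chr9:19144604-19145005 with a score of 112.11, 17.0 kb outside the locus that the deposited transcripts span and at −17.2 kb from their start. In the wider GENCODE annotation its midpoint lay in an intron of *PLIN2*. *PNPLA2* (chr11:818901-825571) had the next highest score near a member after the first *ACSS1* site, 281.04 at chr11:819536-820023, the 136th highest of all sites, with its midpoint 0.878 kb downstream of the start in a coding exon. A second site of *PNPLA2*, at chr11:819046-819463, scored 80.01. A window of *PNPLA2* is given on the hg19 plus strand because it was the droplet gene with the highest score, and neither this site nor that of *PLIN2* held the core ACANNNTGT.
PNPLA2 exon, chr11:819719-819868: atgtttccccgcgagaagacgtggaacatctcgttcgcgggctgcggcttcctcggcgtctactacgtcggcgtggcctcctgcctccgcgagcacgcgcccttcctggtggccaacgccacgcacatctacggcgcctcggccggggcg
*PNPLA2*, with the stronger site, was the gene whose FPKM differed little. *DGAT1* had 10 sites within 50 kb, 2 of them in its introns, and its highest score, 106.26, lay at −10.6 kb from the start in an intron of *SLC52A2*. *DGAT2* had a site at −0.485 kb from its start with a score of 88.35 and its highest score was 100.13. *PLIN3* had 2 sites, the nearest 10.3 kb away with a score of 73.7. *GPAM*, *LPIN1*, *LPIN2* and *LPL* had none within 50 kb.

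In the oxidation branch no member passed 1.5-fold. *CPT1A*, the carnitine transferase that admits long-chain fatty acids to the mitochondrion, was at 22.6 FPKM in EtOH and 18.7 in R5020 with a log2 fold change of −0.26. The PPAR receptors sense fatty acids. *PPARD* was at 3.22 and 2.21 FPKM with a log2 fold change of −0.40, and *PPARA* at 0.844 and 1.06 with 0.16. *PPARG*, the receptor of fat cells, was near 0 at 0.015 and 0.016 FPKM. All 4 genes had a site within 50 kb. *CPT1A* had 2 in introns, the nearer to its start 0.557 kb downstream of it with a score of 69.23, and a higher score of 91.23 lay at −13.7 kb from the start. *PPARG* had a site at −0.149 kb from a start with a score of 71 although its transcript was near 0. *PPARD* had an intronic site with a score of 61.2 and its highest score was 84.66, 40.3 kb from the locus. *PPARA* had 2 sites, the nearest 41.1 kb away with a score of 70.76.

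The SREBP system held the only member that fell. *INSIG2*, which retains the SCAP and SREBP complex in the endoplasmic reticulum, was at 5.67 FPKM in EtOH and 2.81 in R5020, with a log2 fold change of −0.81 that was the 241st lowest of the retained genes. *INSIG1*, its relative and a known SREBP target, was more abundant and was at 46.2 and 38.5 FPKM with a log2 fold change of −0.26. *SCAP*, the escort protein, was at 2.46 and 3.58 FPKM with a log2 fold change of 0.41. The retaining proteins and the escort protein thus had opposite signs, with *INSIG2* alone past 1.5-fold. *SREBF1*, which encodes the SREBP1 proteins of fatty acid synthesis, was at 16.4 and 13.8 FPKM with a log2 fold change of −0.24. *SREBF2*, which encodes the SREBP2 protein of cholesterol synthesis, was at 12.7 and 14.9 FPKM with a log2 fold change of 0.22. The transcripts of *SREBF1* moved in different directions. NM_001005291, the longer of the pair and the higher in EtOH, was at 11.2 FPKM in EtOH and 7.01 in R5020, and NM_004176 was at 5.23 and 6.79. When the highest transcript was used instead of the sum, *SREBF1* had a log2 fold change of −0.61 and passed 1.5-fold on the lower side.

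Of the 5 genes only *SREBF1* had PR binding within 50 kb. A site at chr17:17734122-17734671 lay in an intron, had a score of 91.2 and held the core ACACACTGT. A site at chr17:17713303-17713796 in *RAI1*, 0.867 kb from the locus, had a score of 142.73, and the third, 17.1 kb from the locus, had a score of 82.16. The nearest sites of *SCAP*, *INSIG1*, *SREBF2* and *INSIG2* were 56.4, 131.4, 258.3 and 683.1 kb away. SREBP proteins bind sterol regulatory elements, of which TCACNCCAC is the common form. It was searched on both strands in the RefSeq promoters of GRCh38, 250 bases before to 50 after each start. A match was found in 2 of 42 members with a promoter, 4.76%, against 1.15% of 27305 promoters. None was found in the 11 promoters of fatty acid synthesis or the 9 of cholesterol synthesis. The 2 matches are shown in capitals with their surroundings on the plus strand of the GRCh38 promoters at chr22:41832855-41833154 and chr11:818664-818963.
SREBF2 promoter, match at −133: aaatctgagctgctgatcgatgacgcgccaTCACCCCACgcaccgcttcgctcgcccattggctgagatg
PNPLA2 promoter, match at −153: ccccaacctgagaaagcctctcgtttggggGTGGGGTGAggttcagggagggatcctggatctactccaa
The *SREBF2* match reads along the gene and the *PNPLA2* match on the opposite strand, and both genes stayed within 1.5-fold. No match in a window of 300 bases says only that these letters were not in it.

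None of the 11 genes of cholesterol synthesis passed 1.5-fold, and their log2 fold changes ran from −0.41 to 0.19 with a median of −0.24. They split by position in the route. The 5 early genes, from acetoacetyl-CoA to farnesyl diphosphate, were all below 0 and summed to 258.6 FPKM in EtOH and 220.9 in R5020, a log2 ratio of −0.23. The 6 genes of squalene and the sterol rings had 3 values on each side of 0 and summed to 175.05 and 184.7 FPKM. Over all 11018 retained genes 49.1% were below 0, so the shares for the early and late genes only describe these libraries.

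*HMGCS1*, the synthase that makes HMG-CoA, was at 71.8 FPKM in EtOH and 56.1 in R5020 with a log2 fold change of −0.35. *MVK*, mevalonate kinase, was at 10.01 and 8.28 FPKM with −0.25. *MVD*, which makes isopentenyl diphosphate by decarboxylation, was at 25.2 and 18.7 FPKM and its log2 fold change, −0.41, was the lowest in the branch. The isomerase *IDI1* was the most abundant gene of the branch, at 115 and 108 FPKM, with −0.09. *FDPS*, farnesyl diphosphate synthase, was at 36.5 and 29.8 FPKM with −0.28, and its values are less certain because the genome holds near-identical copies of it and reads with several positions had been discarded. For *MVK* the split between transcripts differed, since NM_000431 was at 10.01 FPKM in EtOH and 2.74 in R5020 while NM_001114185 was listed at 0 and at 5.54. Those transcripts are 2073 and 2064 nt long. When the highest transcript of each library was used instead of the sum, which sets NM_000431 in EtOH against NM_001114185 in R5020, the value for *MVK* was −0.75, so that it is not the change of any transcript.

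*SQLE*, squalene epoxidase and an oxygen-dependent control point of the route, was at 60.3 FPKM in EtOH and 68.7 in R5020, the highest log2 fold change of the branch at 0.19. *FDFT1*, squalene synthase, was at 47.2 and 50.4 FPKM with 0.09. *DHCR7*, which makes cholesterol in the last step, was at 35.3 and 37.8 FPKM with 0.10. *LSS*, which closes the sterol rings, was at 19.8 and 16.5 FPKM with −0.25. *NSDHL* and *HSD17B7*, which act on the ring during demethylation, were at 9.50 and 8.87 FPKM and at 2.93 and 2.33 FPKM, with −0.09 and −0.24, and *HSD17B7* also has near-identical copies. The sum for *LSS* hides an exchange, since NM_001145436 was at 6.08 FPKM in EtOH and listed at 0 in R5020 while NM_002340 was at 13.7 and 16.5.

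PR binding was found within 50 kb of 6 of the 11 genes and inside 2, *IDI1* and *LSS*. The *IDI1* site at chr10:1094662-1095200 scored 77.24 and lay over the start. *LSS* had intronic sites at chr21:47634061-47634664 and chr21:47639443-47639944 with scores of 96.67 and 79.33, and the former held the whole repeat as GAACAGAATGTTC, with the first base at position 47634172. *MVD* had 8 sites, none in its locus, of which the nearest scored 108.69 in a *CYBA* intron 3.4 kb away and the highest scored 141.98 in a *ZC3H18* intron. *MVK* had 5 sites, all at least 30.1 kb away, with scores up to 91.76. *DHCR7* had 2 at 33.4 kb or more with scores up to 86.94, and *SQLE* had 1 at 20.5 kb with a score of 56.91. The window of the *MVD* site is given because it was among the 6 highest scores near members, and it held no ACANNNTGT.
MVD downstream, chr16:88694795-88694944: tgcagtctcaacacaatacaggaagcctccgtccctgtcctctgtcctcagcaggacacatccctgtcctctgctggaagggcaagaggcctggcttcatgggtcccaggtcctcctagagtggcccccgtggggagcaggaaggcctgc
*HMGCS1*, *FDPS*, *FDFT1*, *NSDHL* and *HSD17B7* had no site within 50 kb.

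The 97 pairs rested on 93 sites, since 3 sites lay near several *FADS* genes. Their median score was 78.46 against 74.5 over all sites, and 58.1% were at or above that overall median. *FASN*, *DGAT1* and *MVD* accounted for 32 of the 97 pairs. Of the 93 site midpoints, 45 lay in introns, 15 in coding exons, 14 in UTRs, 2 in other exons and 17 between protein-coding genes. A midpoint lay within 1 kb of a start for 10 sites. These locations were not counted over all sites, so they only describe the sites near members. The whole repeat was found in 3 of the 93 sites, 3.23%, against 2.40% of 11178 sites and 0.823% of windows of the same length 5 kb away. The third match, beside those near *FASN* and in *LSS*, was GGACACTTTGTCC in a site with a score of 62.7 and 31.0 kb from *FASN*. The core ACANNNTGT, which every whole repeat contains, was in 8 of the 93 sites, 8.60%, against 11.6% of all sites and 11.4% of the shifted windows, and the shorter TGTTCT was in 24.7% against 25.2% and 27.4%. The core was found near *ACSS1*, *ACSL1*, *SREBF1*, *DHCR7*, *PPARD*, *LSS* and *FASN*. So, at these short motifs, sites near members held about the same shares as all sites. Set against expression, the 26 retained members with a site had a median log2 fold change of 0.06, with 6 higher and 0 lower, and the 15 without had a median of −0.15, with 2 higher and 1 lower. Over all retained genes the medians were −0.01 and 0.02, and 8.94% of genes with a site and 6.25% of those without were higher. The shares of lower genes were 4.79% with a site and 3.41% without.

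The rest of the pathway was read from a list of 103 further genes of the same 6 branches, of which 100 were found and 66 retained. In R5020, 3 of the 66 were higher and 2 lower, while over all retained genes 7.67% were higher and 4.14% were lower. Of the 66, 28 were above 0 and 38 below 0, with a median log2 fold change of −0.06. No further gene of fatty acid synthesis (12 retained), of the SREBP system (10) or of activation (5) passed 1.5-fold. *HILPDA*, a small lipid droplet protein that inhibits triglyceride lipolysis, went from 15.4 FPKM in EtOH to 64.4 in R5020, which is 4.19 times as much. *PDK4*, a kinase that shuts off pyruvate dehydrogenase and so favours the burning of fatty acids, went from 0.147 to 4.03 FPKM with a log2 fold change of 2.13. The genes that fell were *TM7SF2*, a sterol reductase, from 44.2 to 26.0 FPKM with −0.74, and *ANGPTL4*, a secreted inhibitor of lipoprotein lipase, from 1.85 to 0.508 FPKM with −0.92. In the storage branch, then, the genes past 1.5-fold were the droplet proteins *PLIN2* and *HILPDA*, and none of the retained triglyceride enzymes.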

How the data were processed

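Processed data of 3 of 4 libraries of T47D cells were used, 1 R5020 RNA-seq, 1 EtOH RNA-seq and 1 PR ChIP-seq library, grouped by the sample labels, with dose and time taken from the methods of the study. The authors aligned the RNA reads to hg19 with TopHat, dropped multi-mapping reads and deposited for each RefSeq transcript the FPKM, its bounds and a coverage made with Cufflinks. The coverage, a signal, was used for depth alone, as coverage times length over 50 nt. FPKM are not counts, so no count test was used, and the authors' FPKM bounds were left out. The authors aligned ChIP reads with Bowtie (version 1.1.2 in the submitters' processing notes) and deposited MACS sites with a score. Whether the counting used strand is not given in the sources used here. The methods of the study name an Ensembl annotation, while the deposited transcripts have RefSeq identifiers.

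Transcript FPKM were summed by gene symbol. Genes with at least 1 FPKM in at least 1 library were retained, and a gene was called at 1.5-fold on the log2 scale with a pseudocount of 1. A site belonged to a gene when it overlapped the span of its transcripts or came within 50 kb of it. Motifs were searched in the hg19 sequence, positions were annotated with GENCODE genes lifted to that build, and promoters were those of RefSeq. Python 3.11.15, pandas 2.3.3, numpy 2.4.6 and matplotlib 3.10.9 were used. The code for the calls was run on simulated data with known changes well past the threshold. That simulation held little noise and no spread between cultures, so it checks the code and not the calls made here. The members and the lists of markers and further pathway genes were chosen with earlier results of these data known. All 48 members were named, with fuller values for those past 1.5-fold, most abundant in a branch, nearest the threshold, near a site or with a change of highest transcript, and further pathway genes were named when past 1.5-fold, apart from an item that is not reported here. Sequences shown were windows of 150 bases from the 6 highest-scoring member sites, except one in a UTR, and from the sites of *ACSL1*, *SCD* and *ELOVL5*, chosen after their values were seen. Alternatives in pseudocount, scaling, transcript choice, filter, fold, distance and score were tried.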

Additional observations from a re-analysis of the deposited data

How the results depend on the processing

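No paired analysis was possible because each condition had 1 library, and for the same reason no replicate could be left out. A pseudocount of 0.1, or rescaling R5020 by 0.992 to a median log2 ratio of 0, kept the sign of all 46 members with a nonzero value and all 9 calls. With the highest transcript of each gene, 42 of the 46 kept their sign (not *ACACA*, *LSS*, *NSDHL* and *PPARA*), 6 members were higher and 3 were lower (*INSIG2*, *SREBF1* and *MVK*, the last with a different transcript in each library), against 7.99% and 4.61% of all retained genes. At 2-fold, 3 were higher (*ACSL1*, *ACSS1* and *PLIN2*) and 0 lower, against 3.43% and 1.31%. The median of the retained members was −0.085 with the pseudocount of 0.1, −0.071 rescaled, −0.016 with the highest transcript, −0.076 for genes with 1 FPKM in both libraries and −0.0069 without a filter. The log2 ratios of the branch sums stayed on their side of 0, except that storage was −0.052 without *PLIN2*. That alternative, chosen after seeing the data, left out the member with the widest difference, and gave −0.050 for cholesterol without *HMGCS1*. With the pseudocount of 0.1 they were 0.88 for activation, 0.23 for storage and −0.28 for oxidation. Rescaled, they were 0.32 for fatty acid synthesis, −0.19 for SREBP, −0.11 for cholesterol, 0.86 for activation, 0.21 for storage and −0.28 for oxidation. With the highest transcript they were 0.31, −0.23, −0.060, 0.95, 0.23 and −0.29 in that order. Without the most abundant member they were 0.21 for fatty acid synthesis, −0.082 for SREBP, 0.66 for activation, 0.27 for storage and −0.25 for oxidation. The median log2 fold changes over all listed members of a branch were 0.037 for fatty acid synthesis, −0.24 for SREBP, −0.24 for cholesterol, 0.63 for activation, 0 for storage and −0.13 for oxidation. Members with a site numbered 16 when it had to lie inside the locus, 20 within 10 kb, 25 within 25 kb and 34 within 100 kb. The shares over all gene symbols at these distances were not computed, so the counts only describe the members. The cause of these shifts was not tested. Without replicates, the spread between cultures is unknown for each value.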
